A study of Mus musculus with 21 samples.

Results

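The cytochrome P450 (Cyp) genes of the mouse were followed in male germ cells that lack Tex15. A row of the 3 deposited gene tables was taken as a Cyp gene where its symbol begins with Cyp and a digit. This gave 105 of 24495 gene rows: 99 P450 genes, 5 rows that RefSeq annotates as transcribed pseudogenes (Cyp4b1-ps2, Cyp2d13, Cyp2d37-ps, Cyp4f41-ps and Cyp2c53-ps) and 1 antisense RNA (Cyp4x1os). They fall into 40 subfamilies, named by the number and letter after Cyp. Subfamilies with at least 2 rows hold 75 rows and are called multi-copy here: 2c has 16 rows, 2d and 4f have 10 each, 3a has 9, 4a has 8, 2j has 7, 2b has 5, 2a has 4, and 1a, 4b and 11b have 2 each. The other 29 rows, the antisense RNA set aside, are the single members of their subfamily.

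The 7 groups, 3 libraries each, were germ cells homozygous for the Tex15 mutation (Tex15-/-, KO) and heterozygous germ cells (Tex15+/-, HT) at embryonic days 16.5 and 18.5 (E16.5 and E18.5), and KO, HT and wild-type (WT) germ cells after birth. The postnatal groups are labelled D2.5, while the series' design text calls them day 2. All groups were male, of mixed strain background and sorted for the green fluorescence of an Oct4-GFP reporter, so every library holds cells that carry that reporter, and the embryos and pups came from crosses between heterozygotes. Wild-type cells were profiled at D2.5 alone, so at the embryonic ages KO cells can be set only against HT cells. The labels call the libraries biological triplicates, without naming the animals or pools behind each.

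P450 enzymes are haem proteins that insert an oxygen atom into their substrates, with electrons handed on by P450 reductase or, in mitochondria, by ferredoxin. The 2c, 2j and 4a enzymes oxidise drugs and fatty acids such as arachidonic acid, mainly in liver and kidney, and their genes lie in tandem arrays that have expanded in rodents. Members with fixed endogenous tasks make steroid hormones (Cyp11a1, Cyp17a1, Cyp19a1), make cholesterol (Cyp51) and bile acids (Cyp7a1, Cyp7b1), or break down retinoic acid (Cyp26b1), the signal that starts meiosis and that Cyp26b1 in the somatic cells of the fetal testis keeps from male germ cells.

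The libraries held 6063632 to 11884109 gene counts. Levels are given as CPM, a gene's counts scaled to a common library total; a count of 3 corresponds to 0.252 to 0.495 CPM. Tex15 stood at 2.93 to 20.1 CPM in the KO libraries of the 3 ages, against 774 to 1848 CPM in the HT libraries and 3106 to 3823 CPM in WT, with log2 fold changes against HT of -8.16 (E16.5), -8.01 (E18.5) and -6.49 (D2.5), each past the edgeR test (adjusted p = 2.26e-05, 3.44e-12 and 4.60e-17). HT replicate 1 at E16.5 stood apart, with 57 Cyp rows above 0 where the other 5 libraries of that age had 82 to 95. At D2.5 each library listed 7227 to 8279 of all genes at 0, against 2359 to 2687 at E18.5. Of the 105 Cyp rows 104 had a count in at least 1 library. The filter on low counts passed 55 rows of the E16.5 table, 77 of the E18.5 table and 33 of the D2.5 table, and 26 rows passed in none. Germ cell markers summed to 3976 to 7174 CPM per library and markers of Leydig cells, the steroid-making cells of the testis, to 59.1 to 131 CPM. In such bulk samples a change in the number of cells of a kind and a change in RNA per cell cannot be told apart.

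The promoters of 5 genes of the expanded arrays are printed here. They let a gene called at E18.5 be set beside an uncalled gene of its array and beside called genes of other arrays. The windows hold 250 bases before and 50 after the annotated start (RefSeq, build GRCm38.p6), written in the direction of transcription. Capitals mark TATAAA (the TATA box), the CCAAT box and the nuclear receptor sequence TGACCT on either strand; read on the other strand, the first appears as TTTATA, the second as ATTGG and the third as AGGTCA. Cyp2c29 lies at chr19:39286835-39287134 on the plus strand, Cyp2c50 at chr19:40089429-40089728 on the plus strand, Cyp2c37 at chr19:39992174-39992473 on the plus strand, Cyp4a32 at chr4:115600688-115600987 on the plus strand and Cyp2j8 at chr4:96507348-96507647 on the minus strand.
Cyp2c29: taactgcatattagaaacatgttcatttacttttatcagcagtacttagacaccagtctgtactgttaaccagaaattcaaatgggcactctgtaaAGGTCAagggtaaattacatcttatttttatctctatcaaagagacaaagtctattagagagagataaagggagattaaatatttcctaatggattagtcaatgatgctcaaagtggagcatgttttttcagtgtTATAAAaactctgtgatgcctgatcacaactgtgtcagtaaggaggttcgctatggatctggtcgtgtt
Cyp2c50: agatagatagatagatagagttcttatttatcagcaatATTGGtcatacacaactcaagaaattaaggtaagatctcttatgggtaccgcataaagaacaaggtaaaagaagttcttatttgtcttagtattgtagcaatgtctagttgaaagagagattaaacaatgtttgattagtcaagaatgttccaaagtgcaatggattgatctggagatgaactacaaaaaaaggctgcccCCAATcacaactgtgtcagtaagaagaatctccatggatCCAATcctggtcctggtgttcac
Cyp2c37: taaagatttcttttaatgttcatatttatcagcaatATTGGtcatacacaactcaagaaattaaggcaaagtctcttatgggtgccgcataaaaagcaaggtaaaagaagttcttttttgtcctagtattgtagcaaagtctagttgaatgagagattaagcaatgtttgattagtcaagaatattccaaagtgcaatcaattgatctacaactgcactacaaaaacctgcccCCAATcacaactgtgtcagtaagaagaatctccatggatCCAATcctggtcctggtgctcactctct
Cyp4a32: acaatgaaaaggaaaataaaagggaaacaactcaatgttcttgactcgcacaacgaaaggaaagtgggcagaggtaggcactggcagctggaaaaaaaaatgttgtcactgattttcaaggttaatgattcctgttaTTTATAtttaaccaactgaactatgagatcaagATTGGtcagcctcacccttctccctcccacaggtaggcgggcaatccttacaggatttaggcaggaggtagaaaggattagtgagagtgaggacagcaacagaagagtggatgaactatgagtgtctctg
Cyp2j8: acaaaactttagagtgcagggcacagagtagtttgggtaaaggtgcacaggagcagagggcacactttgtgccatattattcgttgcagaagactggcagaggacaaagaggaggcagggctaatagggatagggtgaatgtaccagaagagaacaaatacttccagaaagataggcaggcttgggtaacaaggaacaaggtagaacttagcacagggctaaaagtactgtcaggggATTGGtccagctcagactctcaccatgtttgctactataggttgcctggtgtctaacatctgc

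Cyp2c50, which passed the test at E18.5, and Cyp2c37, which did not, were identical at 264 of 305 aligned positions (86.6%). The called genes Cyp2c50 and Cyp2c29 shared 61.3% of aligned positions, and Cyp4a32 and Cyp2j8 shared 48.9%. Cyp2c29 carries TATAAA with its first base 19 bases before the start, while the windows of Cyp2c50, Cyp2c37 and Cyp2j8 hold no TATA box letters. Over the genome, TATAAA stood in 13.62% of all 32851 mouse promoter windows of this length and in 38.64% of the 88 Cyp windows. It stood in 4 of the 7 called genes that had a window. Of the genes with a window that were not called, it stood in 15 of the 52 tested at E18.5 and in 12 of the 19 not tested at that age. In 2 of the 4 called genes it did not lie just before the start: it began 41 bases after it in Cyp2c40 and 113 bases before it, on the other strand, in Cyp4a32. CCAAT stood in 37.41% of all windows and 46.59% of the Cyp windows, and TGACCT in 16.26% of all windows and 25% of the Cyp windows. The windows were poor in the dinucleotide CpG, with a median of 3 in the Cyp windows against 7 in all windows. The median was 2 in windows of multi-copy genes and 6 in those of single-copy genes. The called genes had 0 to 3 CpG per window. Cyp4a12b, Cyp7b1 and Cyp2c53-ps were called too and have no window shown.

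At E18.5, KO cells held more RNA of 10 Cyp genes than HT cells and of 0 Cyp genes less, in edgeR's quasi-likelihood test with Benjamini-Hochberg adjustment over 18199 genes and a threshold of 0.05. These were Cyp4a12b and Cyp4a32; Cyp2c29, Cyp2c38, Cyp2c40, Cyp2c50, Cyp2c68 and the pseudogene Cyp2c53-ps; Cyp2j8; and Cyp7b1. Over all genes, 2.07% were called higher and 0.0659% lower in the same comparison. Without HT replicate 1 or without KO replicate 3, 6 Cyp genes were called. All 10 had each KO library above each HT library, which their choice by this test makes likely in advance. Among the 77 tested rows 22 had that separation, against 6.85% of all tested genes. The reverse separation held for 4 of the 77 rows and for 1302 of the 18199 genes. These shares depend in part on the filter: 13 of the 77 rows and 603 of the 18199 genes reached its cutoff in all 3 KO libraries only.

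Cyp4a12b and Cyp4a32 belong to the fatty acid omega-hydroxylases of the 4a array on chromosome 4 and had the largest fold changes. Cyp4a12b stood at 19.8, 28.9 and 22.5 CPM in the KO libraries, against 0.762, 2.15 and 3.21 CPM in the HT libraries (log2 fold change 3.54, SE 0.34, edgeR adjusted p = 4.54e-05). Cyp4a32 stood at 6.10, 11.2 and 11.4 CPM in KO, against 1.02, 0.716 and 0.622 CPM in HT (log2 fold change 3.65, SE 0.38, edgeR adjusted p = 8.32e-05). For both genes the lowest KO library lay far above the highest HT library. The other 2 tested members, Cyp4a10 and Cyp4a14, were not called. Reads may be split between copies. Of the 31-base words of Cyp4a12b 62.9% also occur in transcripts of other genes, all of these in Cyp4a12a. For Cyp4a32 the share was 62.8%, and 49.2% of its words occur in the uncalled Cyp4a10. Of the words of Cyp4a10, 36.5% occur in Cyp4a32. Cyp4a12a itself had 9, 26 and 13 counts in KO and 6, 10 and 10 counts in HT and did not pass the filter.

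In the 2c array on chromosome 19, which holds 15 of the 16 2c rows, the clearest gene was Cyp2c29, a liver enzyme of drug and arachidonic acid oxidation. It stood at 20.5, 16.0 and 19.0 CPM in KO, against 4.32, 4.75 and 3.63 CPM in HT (log2 fold change 2.16, SE 0.23, edgeR adjusted p = 9.30e-05). The groups were separated by more than the whole spread within either. Its neighbour Cyp2c53-ps stood at 7.86, 6.56 and 7.201 CPM in KO, against 1.65, 1.70 and 2.49 CPM in HT (log2 fold change 1.92, SE 0.30, edgeR adjusted p = 0.00194). Cyp2c50 stood at 6.10, 5.70 and 2.63 CPM in KO, against 1.14, 0.716 and 0.622 CPM in HT (log2 fold change 2.59, SE 0.45, edgeR adjusted p = 0.00481). KO replicate 3 of Cyp2c50 lay lower than the other KO libraries and still above each HT library.

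Cyp2c40, Cyp2c68 and Cyp2c38 passed with less room. Cyp2c40 stood at 6.57, 8.60 and 8.80 CPM in KO, against 4.19, 3.04 and 4.14 CPM in HT (log2 fold change 1.13, SE 0.27, edgeR adjusted p = 0.0415). Cyp2c68 stood at 2.11, 3.76 and 2.86 CPM in KO, against 0.381, 0.985 and 0.311 CPM in HT (log2 fold change 2.34, SE 0.51, edgeR adjusted p = 0.0239). Cyp2c38 stood at 6.81, 1.94 and 2.97 CPM in KO, against 1.14, 0.716 and 1.04 CPM in HT (log2 fold change 2.05, SE 0.49, edgeR adjusted p = 0.0454). When 1 of the 6 libraries was left out in turn, Cyp2c40 and Cyp2c38 each failed to pass in 5 of 6 cases (edgeR adjusted p from 0.0218 to 0.251 for Cyp2c40 and from 0.0114 to 0.258 for Cyp2c38), and Cyp2c68 in 4 of 6 (0.0188 to 0.148). The log2 fold change of Cyp2c38 was 1.399 without KO replicate 1, its highest library. Cyp2c40 shares 72.6% of its 31-base words with transcripts of other genes and Cyp2c68 62.0%, against 10.4% for Cyp2c29.

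The genes at both ends of the array were not called: Cyp2c55, one of the most abundant Cyp genes of these cells, was at -0.14 on the log2 scale (SE 0.21), and Cyp2c70 at 0.05 (SE 0.26). Cyp2c37, whose promoter is close to that of Cyp2c50, was not called either, and had 25, 10 and 29 counts in KO and 12, 21 and 18 counts in HT. Reads may be split between these 2 genes. Of the 31-base words of Cyp2c37 47.4% also occur in transcripts of other genes, and 34.2% occur in Cyp2c50. For Cyp2c50 the share found in other genes was 29.2%. In the order along the chromosome, the called Cyp2c53-ps and Cyp2c29 were direct neighbours, as were Cyp2c68 and Cyp2c40. Cyp2c38 and Cyp2c50 each stood between rows that were not called. Of the 40 tested genes of other families that flank the arrays of at least 4 Cyp genes (3 on each side), edgeR called 0, with 3 at an unadjusted p under 0.05 and a median log2 fold change of 0.01. The 7 tested genes of other families inside the arrays had 0 calls, 1 unadjusted p under 0.05 and a median of 0.22.

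**Figure D1:**
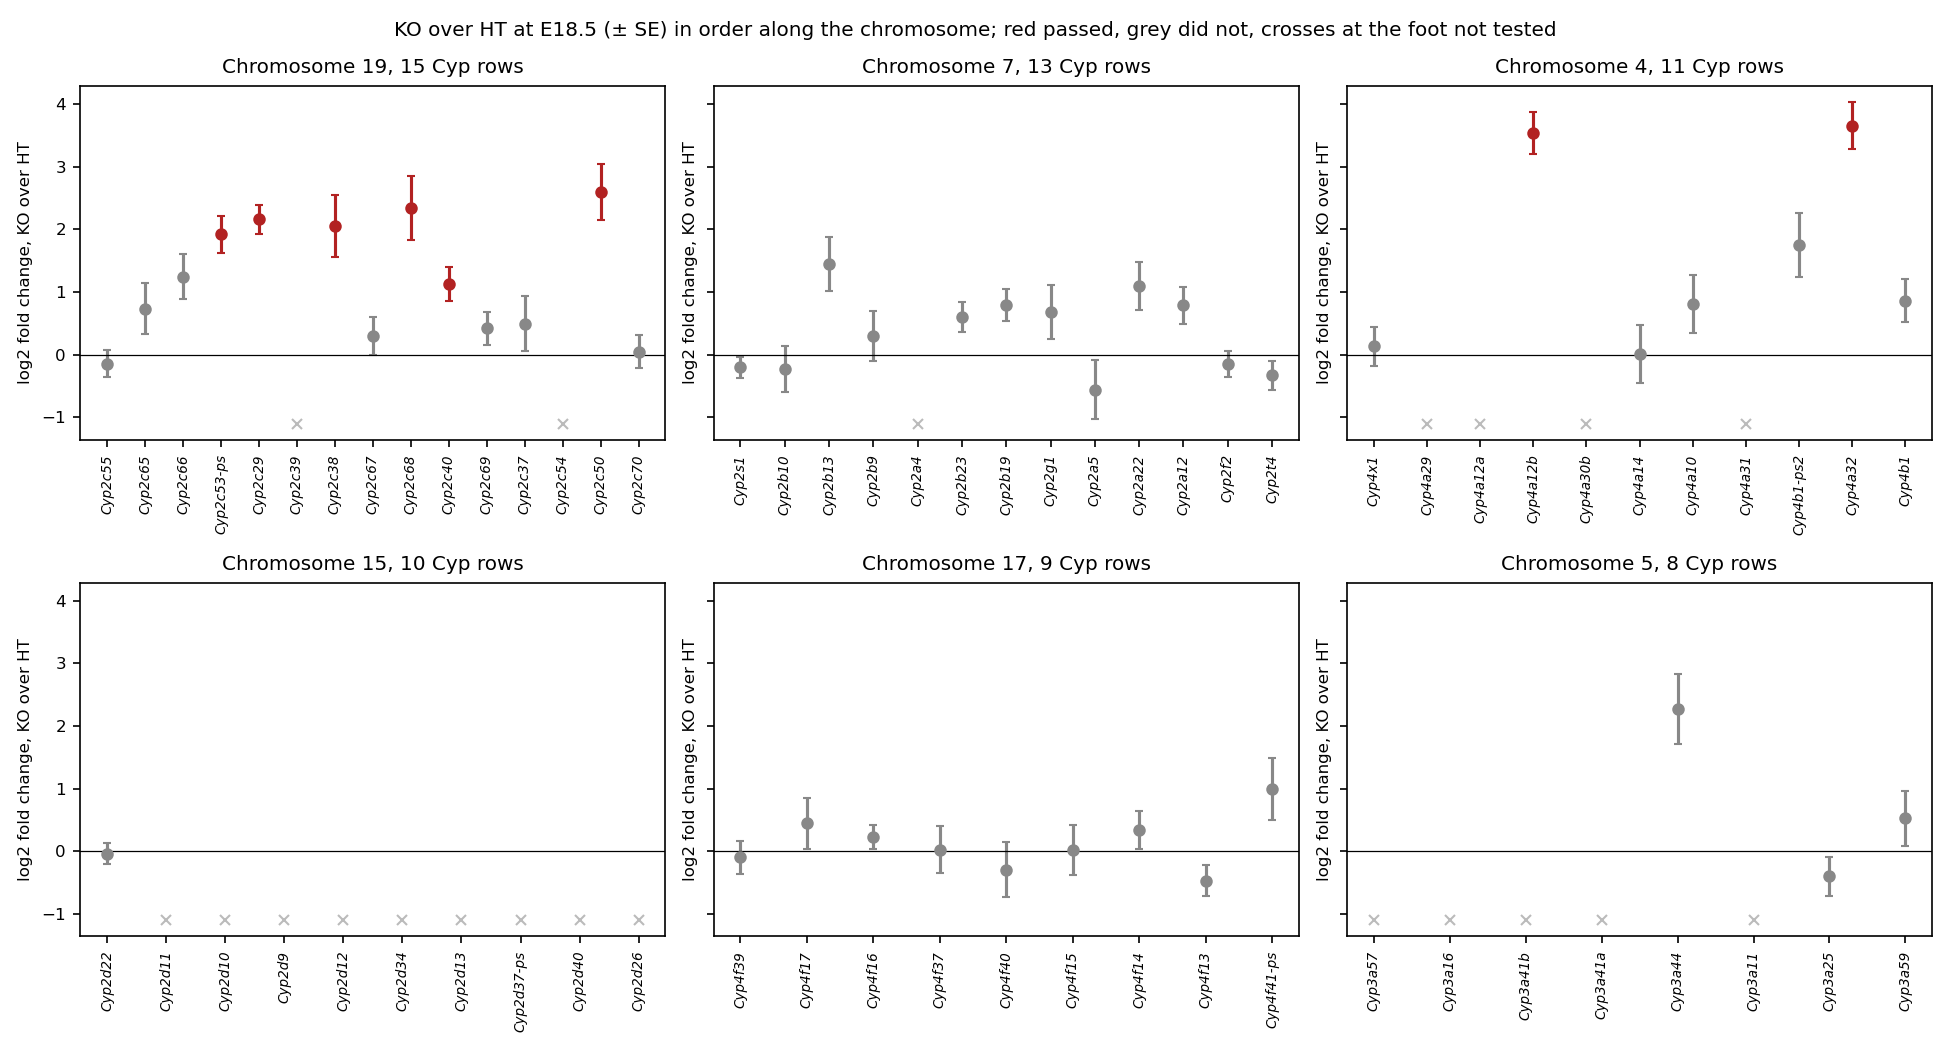
Log2 fold change of KO over HT at E18.5 with its standard error, in the order of the genes along 6 chromosomal groups; red points passed the edgeR test, grey points did not, and crosses at the foot of a panel mark rows that were not tested. The red points fall in the groups of chromosomes 19 and 4, and some of those on chromosome 19 are direct neighbours. The groups of chromosomes 7, 15, 17 and 5 hold 0 of them.

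Cyp2j8, of the 2j array of arachidonic acid epoxygenases on chromosome 4, stood at 4.34, 3.55 and 3.66 CPM in KO, against 1.02, 1.16 and 1.66 CPM in HT (log2 fold change 1.61, SE 0.37, edgeR adjusted p = 0.0312). The libraries of the groups did not overlap, but leaving out any 1 of the 6 libraries ended the call (edgeR adjusted p from 0.0659 to 0.175), and the other 4 tested 2j genes were not called. Cyp7b1, the oxysterol 7-alpha-hydroxylase of the alternative bile acid pathway, is the single member of its subfamily in the tables and shares 0% of its 31-base words with transcripts of other genes. It stood at 12.9, 11.2 and 8.92 CPM in KO, against 2.41, 3.31 and 3.42 CPM in HT (log2 fold change 1.88, SE 0.27, edgeR adjusted p = 0.00103).

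Among the rows that did not pass, the largest fold changes were those of Cyp3a44 (2.27, SE 0.56, edgeR adjusted p = 0.0548), Cyp4b1-ps2 (1.75, SE 0.51, edgeR adjusted p = 0.137) and Cyp2b13 (1.45, SE 0.43, edgeR adjusted p = 0.146). Cyp3a44 stood at 2.58, 2.47 and 1.94 CPM in KO, against 0.254, 0.179 and 1.04 CPM in HT. Its groups did not overlap, and DESeq2 called it (adjusted p = 0.0307). It also passed with no filter, with limma-voom and without HT replicate 3 (adjusted p = 0.0423, 0.0352 and 0.0222). Of the 12 settings run it passed in 5. When 1 library was left out in turn, it did not pass in 5 of 6 cases (edgeR adjusted p up to 0.320).

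**Figure D2:**
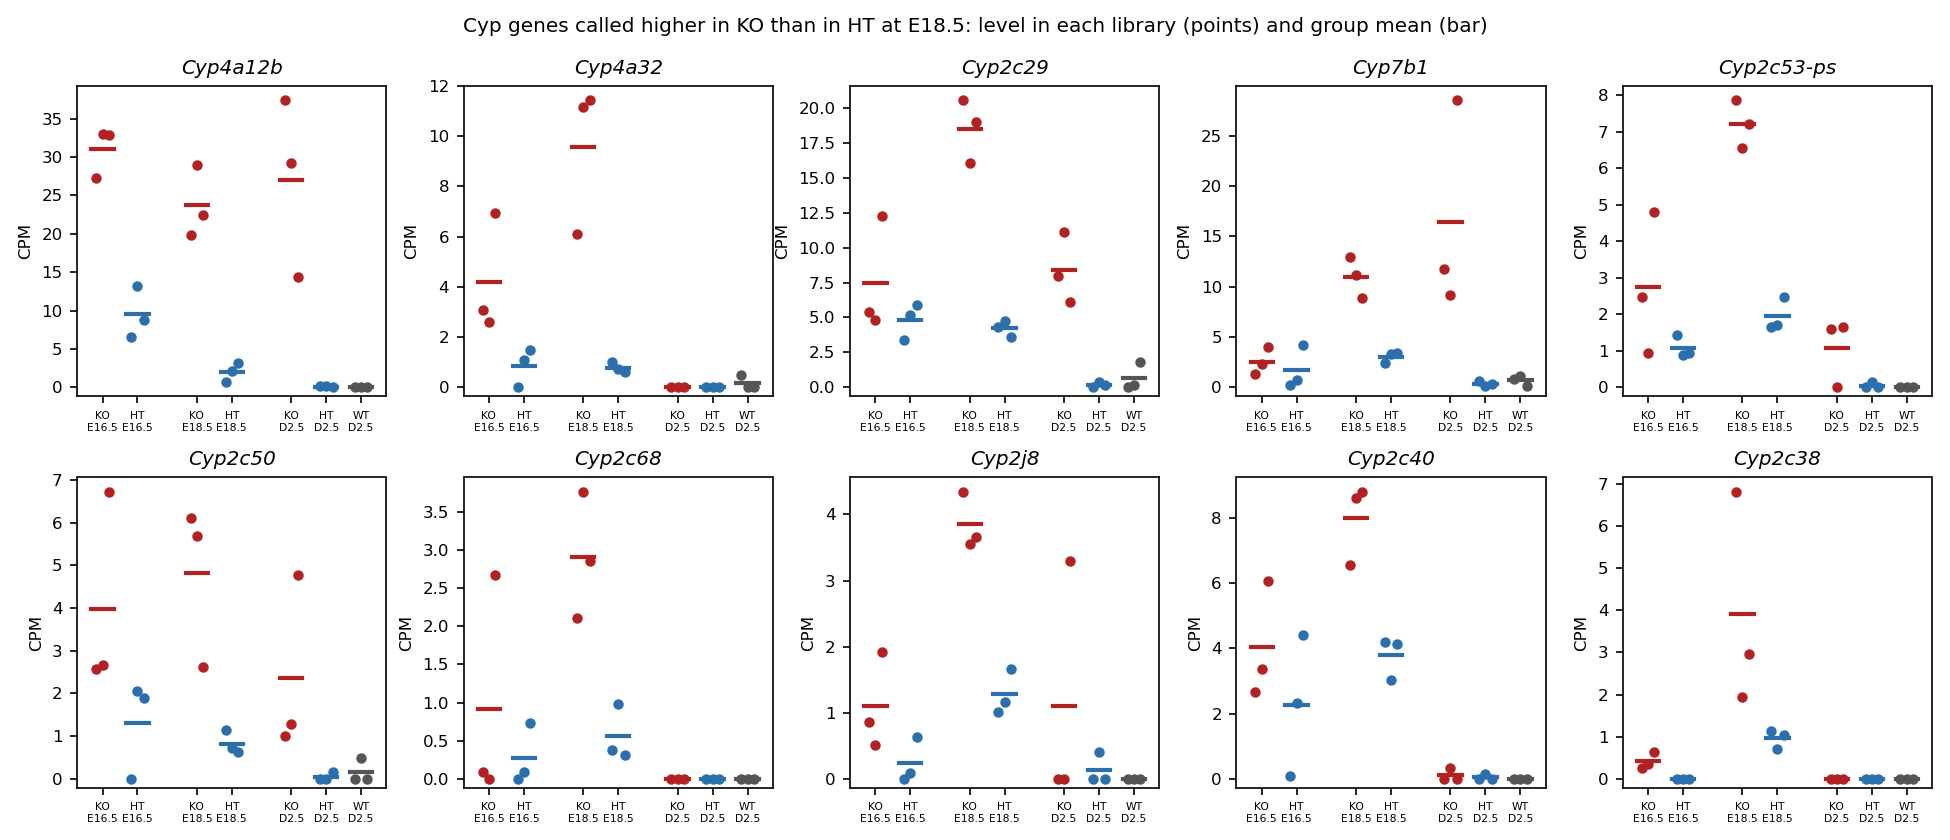
Level of the 10 Cyp genes called at E18.5 in each of the 21 libraries, in CPM on a linear scale, with bars at the group means; red is KO, blue HT and grey WT. At E18.5 the 3 KO libraries lie above the 3 HT libraries in each panel. At D2.5 Cyp4a12b, Cyp2c29 and Cyp7b1 remain visible in KO while HT and WT are near 0. Cyp2c50, Cyp2c53-ps and Cyp2j8 also lie above 0 in some KO libraries at that age, at lower levels.

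By copy class the calls at E18.5 fell as follows. In 2c, 2j and 4a together 9 of 23 tested rows were called (39.1%), with a median log2 fold change of 0.74. The single-copy genes had 1 call in 25 (4%), Cyp7b1, and a median of 0.13. The other multi-copy subfamilies had 0 calls in 29 and a median of 0.30, with 8 at an unadjusted p under 0.05 (8.12% of all genes had one); Cyp3a44, which DESeq2 called, is among them. Over all genes tested, 2.14% were called in either direction and the median was -0.00. By subfamily, 6 of 14 tested 2c rows, 2 of 4 tested 4a rows and 1 of 5 tested 2j rows were called, while 0 of 10 tested 4f rows and 0 of 5 tested 2b rows were.

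Some of the tested rows entered through their KO level. Of the 77 rows, 62 reached the count cutoff (1.11 CPM) in all 3 HT libraries and 13 in all 3 KO libraries only. Among the 62, the called genes were Cyp7b1, Cyp2c40, Cyp2c53-ps and Cyp2c29 (6.45%), where 1.32% of all genes with that HT level were called higher. Among them 3 of 14 rows of 2c, 2j and 4a, 0 of 25 other multi-copy rows and 1 of 23 single-copy rows were called. The median log2 fold changes of these 3 classes were 0.46, 0.23 and 0.05, against -0.01 for all genes with that HT level. The class medians over all tested rows thus depend in part on the filter. Of the 52 tested multi-copy rows 12 reached the cutoff in all 3 KO libraries only, as did 1 of the 25 single-copy rows. With no filter, 11 of 104 Cyp rows were called higher (10.6%), against 1.86% of 23212 genes.

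**Figure D3:**
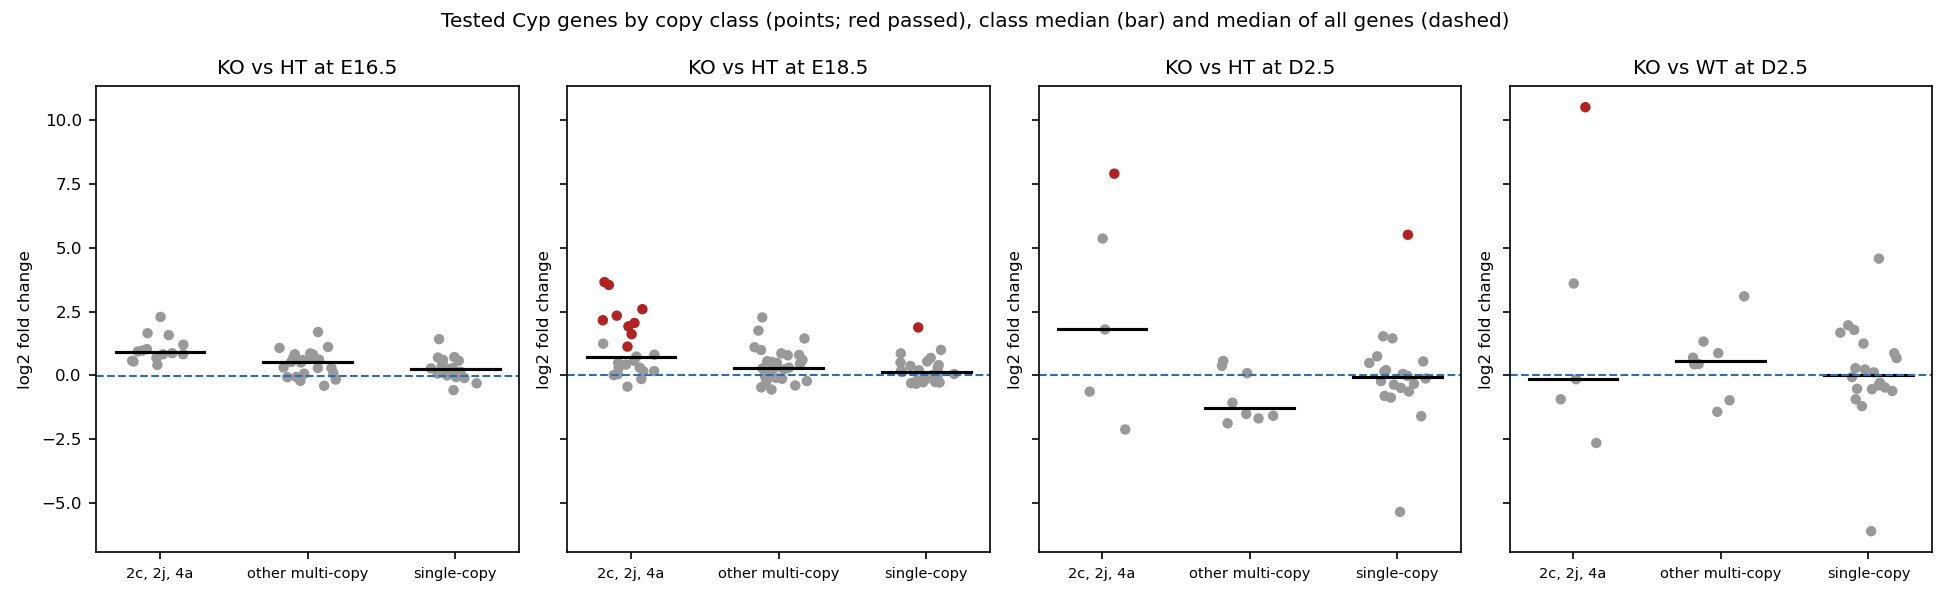
Log2 fold change of each tested Cyp gene in 4 genotype comparisons, by copy class, with the class median as a bar, the median of all genes as a dashed line, and genes that passed the edgeR test in red. At E18.5 the red points lie in the 2c, 2j and 4a class with 1 in the single-copy class, and at D2.5 the classes hold few genes and spread widely.

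Summed levels were compared too. The 4a genes summed to 32.5 to 48.1 CPM in KO libraries at E18.5, against 5.97 to 9.53 CPM in HT libraries. The 2c genes summed to 94.2 to 107 CPM in KO and 58.4 to 67.2 CPM in HT, and the 2j genes to 21.5 to 26.4 CPM in KO and 15.3 to 17.6 CPM in HT. None of these ranges overlapped. Cyp4a12b and Cyp4a32 averaged 23.8 and 9.57 CPM in KO, where the 4a sum averaged 41.1 CPM. The 2b, 2a and 3a sums did not overlap either. They were 31.8 to 46.3, 10.2 to 16.3 and 11.8 to 13.1 CPM in KO. In HT they were 22.8 to 27.5, 7.16 to 9.84 and 8.60 to 11.6 CPM. The 2d and 4f sums overlapped. The single-copy genes summed to 276 to 289 CPM in KO and 259 to 297 CPM in HT, and those ranges did overlap.

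Some markers of other cell types differed between the genotypes at this age. The macrophage and blood list summed to 77.9 to 97.6 CPM in KO and 35.7 to 37.5 CPM in HT, and 2 of its 5 tested genes, out of 10 listed, were called higher: Mrc1 (log2 fold change 1.82, edgeR adjusted p = 6.27e-05) and Adgre1 (1.43, edgeR adjusted p = 0.00883). Of the 5 tested genes 4 were fitted above 0 and 1 below, with a median log2 fold change of 0.54. The globin genes of this list, Hba-a1 and Hbb-b1, were listed at 0 in all libraries. Of the 8 endothelial markers Tek was called higher (0.87, edgeR adjusted p = 0.0166), while their sum was 269 to 327 CPM in KO and 272 to 362 CPM in HT. Of the 10 germ cell markers, Pou5f1 was called lower (-0.81, edgeR adjusted p = 0.0307); the reporter of the sort is built on this gene. Their part in the Cyp results was not tested. Hepatocytes are the main site of many 2c and 4a enzymes. Their markers summed to 379 to 436 CPM in KO and 422 to 478 CPM in HT. Of the 9 tested, 0 were called, and 6 were fitted below 0 and 3 above, with a median of -0.11. Alb had 17, 16 and 17 counts in KO and 15, 6 and 3 counts in HT. Other listed genes thus carried nearly all of the sum.

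**Figure D4:**
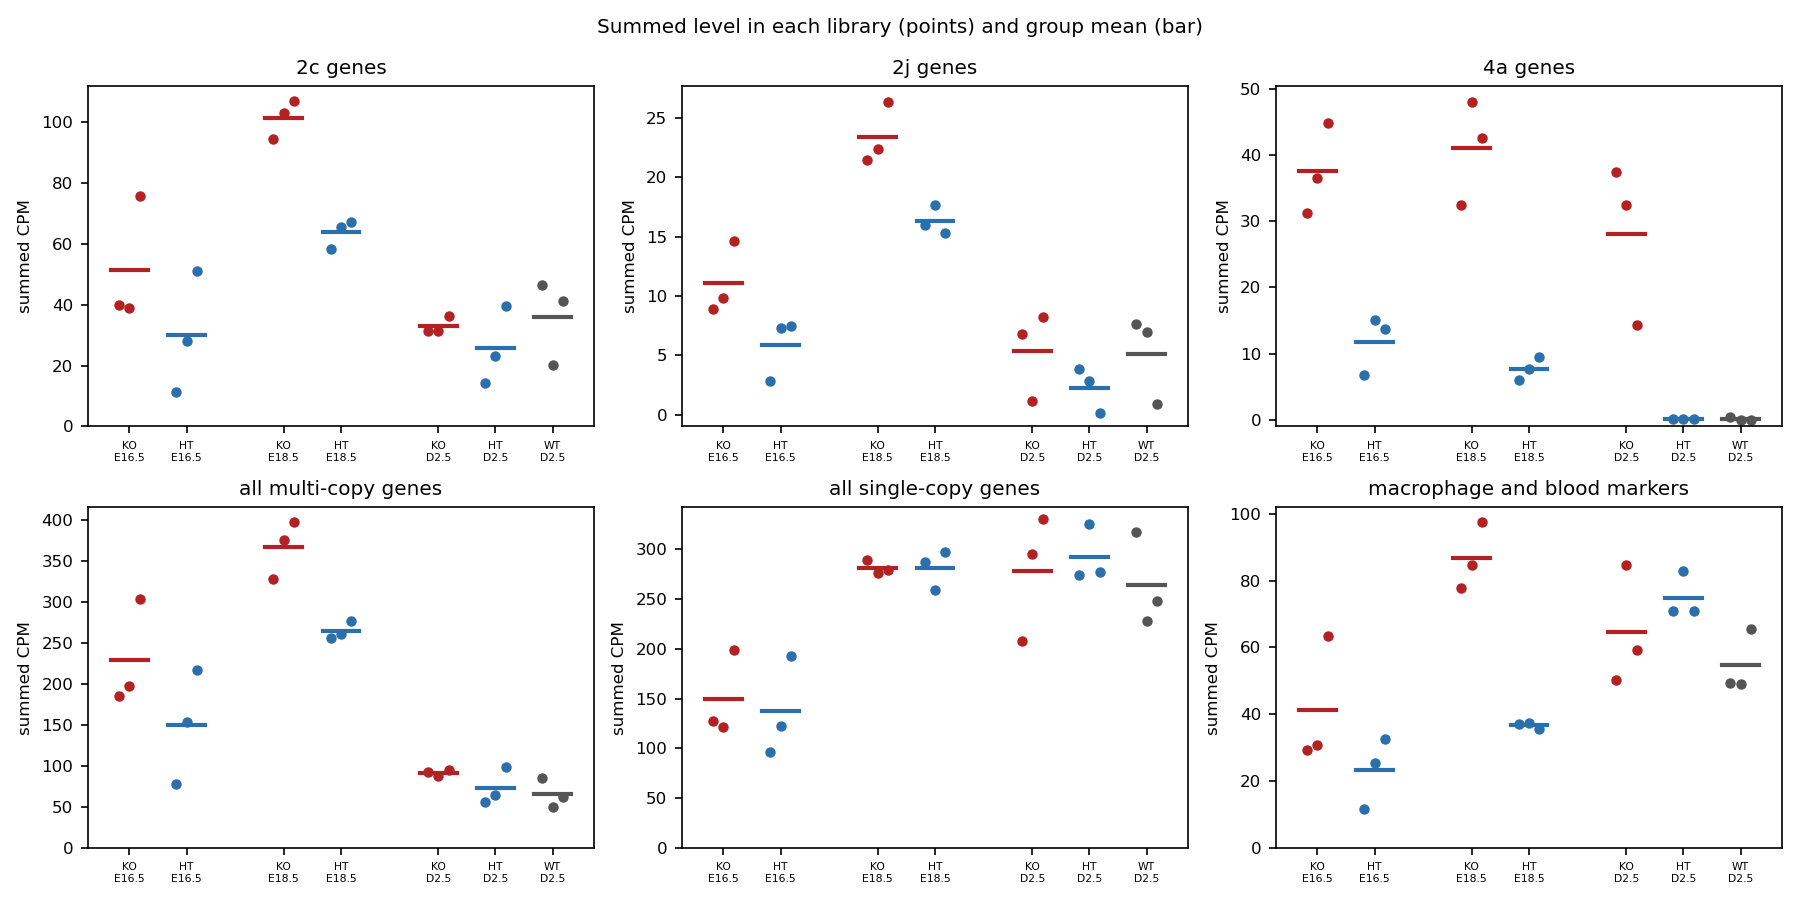
Summed CPM in each library for the 2c, 2j and 4a genes, all multi-copy and all single-copy Cyp genes, and the macrophage and blood markers, with bars at the group means; red is KO, blue HT and grey WT. The 4a sum is higher in KO than in HT at each age, the single-copy sum overlaps between genotypes at each age, and the macrophage and blood sum separates the genotypes at E18.5.

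Among the Cyp genes with endogenous roles, Cyp7b1 was the one called at E18.5. Of the sterol and bile acid genes 1 of 6 tested was called. Cyp7a1, the rate-limiting enzyme of classical bile acid synthesis, stood at 7.51, 5.16 and 8.12 CPM in KO, against 3.81, 2.69 and 4.25 CPM in HT, without overlap and without passing (log2 fold change 1.00, SE 0.29, edgeR adjusted p = 0.134). Cyp51, the lanosterol demethylase of cholesterol synthesis, was at -0.01 (SE 0.17), Cyp39a1 at -0.10 (SE 0.19), Cyp27a1 at 0.13 (SE 0.35) and the cholesterol 24-hydroxylase Cyp46a1 at -0.27 (SE 0.17). Cyp8b1 did not pass the filter at any age, with at most 0.968 CPM in a library.

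Steroid hormone genes had 0 calls in 4. Cyp11a1, which cleaves the side chain of cholesterol, stood at 16.1, 16.6 and 13.6 CPM in KO and 11.6, 15.2 and 9.84 CPM in HT (log2 fold change 0.37, SE 0.22), and the aromatase Cyp19a1 at 15.02, 15.4 and 15.3 CPM in KO and 17.8, 15.9 and 11.6 CPM in HT (0.05, SE 0.21). The groups overlapped for both. Cyp11b1 was at -0.06 and Cyp11b2 at 0.49, while Cyp17a1 and Cyp21a1 were not tested at this age. Retinoic acid clearance had 0 calls in 3, with Cyp26b1 at 0.20 (SE 0.24), Cyp26a1 at 0.18 (SE 0.46) and Cyp26c1 at 0.86 (SE 0.65). Vitamin D had 0 calls in 3, with Cyp2r1 at -0.27, the activating enzyme Cyp27b1 at 0.30 and the degrading enzyme Cyp24a1 at -0.15. The aryl hydrocarbon receptor targets Cyp1a1 (0.18), Cyp1a2 (0.27) and Cyp1b1 (0.00) gave 0 calls in 3. In these 4 lists 0 genes had an unadjusted p under 0.05, and the smallest edgeR adjusted p was 0.780.

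**Figure D5:**
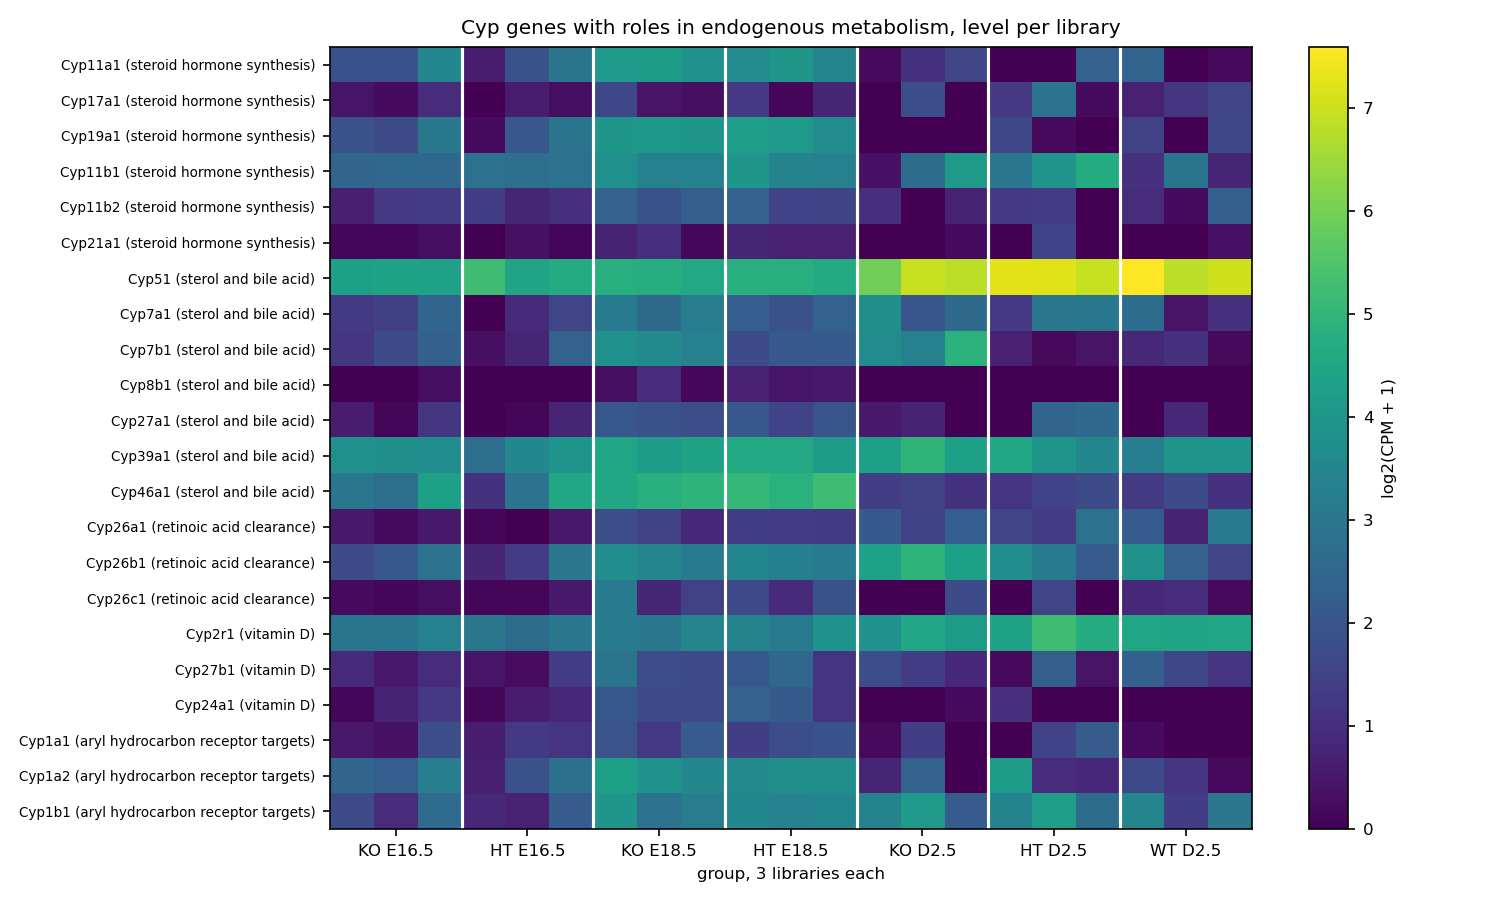
Level of 22 Cyp genes with endogenous roles in each of the 21 libraries, as log2(CPM + 1), grouped by role along the rows and by genotype and age along the columns. Cyp51 is the brightest row at D2.5 in all genotypes, and Cyp7b1 is brighter in KO than in HT at E18.5 and brighter in KO than in HT and WT at D2.5.

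The 4 lists of genes that work with P450 enzymes had 0 edgeR calls each in the 5 genotype comparisons, with 0 to 3 genes of a list at an unadjusted p under 0.05. At E18.5 the 9 electron transfer and haem genes had a median log2 fold change of -0.16, with Cyb5r3 at 0.07 and Hmox1 at -0.31. The 15 tested receptors that regulate Cyp genes had a median of -0.11, with Arnt at 0.15 and Rxra at -0.15. The 16 retinoic acid pathway genes had a median of 0.02, with the retinoic acid maker Aldh1a2 at -0.02 and Rara at -0.14. Of the 21 cholesterol synthesis genes 18 were fitted below 0, with a median of -0.14 and Fdft1 at -0.23.

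At E16.5, 0 of 55 tested Cyp genes passed, where 1 of 16185 genes passed (0.00618%), the targeted gene Tex15. The spread between libraries was wide at this age, with a biological coefficient of variation of 37.3% against 17.9% at E18.5. DESeq2 called 1 Cyp gene, Cyp4a12b, and 2 Cyp genes had an unadjusted p under 0.05 in edgeR, as did 1.17% of all genes. Cyp4a12b stood at 27.3, 33.0 and 32.9 CPM in KO, against 6.56, 13.2 and 8.83 CPM in HT. These groups did not overlap (log2 fold change 1.65, SE 0.27, edgeR adjusted p = 0.976, DESeq2 adjusted p = 0.000105). Of the 55 genes 45 were fitted above 0, with a median of 0.54 against -0.01 over all genes. Some of these rows entered through their KO level. Of the 55, 27 reached the count cutoff (0.878 CPM) in all 3 HT libraries and 19 in all 3 KO libraries only. Over all 16185 genes tested, these were 13539 and 1606. The number fitted above 0 therefore depends in part on the filter. Without HT replicate 1, the library that stood apart, 43 of 60 were above 0 and the median was 0.20, while Cyp4a12b was at 1.51 (SE 0.25). Macrophage and blood markers summed to 29.4 to 63.5 CPM in KO and 11.7 to 32.7 CPM in HT at this age, and their part was not tested.

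Among the other members at E16.5, Cyp4a32 stood at 3.08, 2.58 and 6.93 CPM in KO and 0, 1.07 and 1.47 CPM in HT (log2 fold change 2.29, SE 0.99), and Cyp2c29 at 5.38, 4.82 and 12.3 CPM in KO and 3.37, 5.19 and 5.89 CPM in HT (0.57, SE 0.42). The groups overlapped for Cyp2c29 and not for Cyp4a32, and without HT replicate 1 their log2 fold changes were 0.44 and 1.72. Cyp7b1 stood at 1.28, 2.33 and 4.05 CPM in KO and 0.252, 0.715 and 4.21 CPM in HT, with overlap. Cyp4b1-ps2 stood at 0.684, 0.948 and 2.67 CPM in KO and 0, 0.358 and 0.946 CPM in HT (1.70, SE 1.04). Cyp2c38 had 13 counts over the KO libraries and 0 over the HT libraries. Of the 55 tested genes 6 had each KO library above each HT library, all of them multi-copy, against 3.37% of all tested genes. Of the 36 tested multi-copy rows, 12 reached the count cutoff in all 3 KO libraries only, as did 7 of the 19 single-copy rows.

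At D2.5 KO cells could be set against HT and WT cells, which were fitted together, and the comparisons share libraries. Against HT 2 of 33 tested Cyp genes were called, both higher, where 0.146% of all genes were called higher (0.153% in either direction). Against WT 1 of 33 was called, where 0.195% of all genes were called higher (0.216% in either direction). Between HT and WT 0 were called, where 0.00696% of all genes were called in either direction, and 2 had an unadjusted p under 0.05, as did 3.4% of all genes; DESeq2 called 0. Against HT 4 of the 33 had each KO library above each HT library (5.32% of all genes), against WT 6 did (6% of all genes), and 1 had each HT library above each WT library (4.59%). Of the 33, 15 reached the count cutoff (1.56 CPM) in all 3 libraries of HT or of WT. Both called genes, Cyp4a12b and Cyp7b1, were under it in each HT and WT library and entered through their KO level. Among the 15, edgeR called 0 against HT and 0 against WT, with 2 and 3 at an unadjusted p under 0.05, where 0.118% and 0.169% of the 11841 genes with that level in HT or WT were called higher.

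Cyp4a12b stood at 37.4, 29.3 and 14.3 CPM in KO, against 0.153, 0.135 and 0 CPM in HT and 0, 0 and 0 CPM in WT. In counts this was 258, 182 and 87 reads in KO, 1, 1 and 0 in HT and 0 in each WT library. The ratio of summed KO to HT reads, scaled for library size, was 279 (95% interval 76.9 to 2311, counting error only). Against WT it was at least 58.5-fold higher, with 3 counts per library as the limit for a group at 0. edgeR gave an adjusted p of 0.000228 against HT and 5.87e-05 against WT. The KO libraries of D2.5 overlapped with those of E16.5 (27.3 to 33.0 CPM), whereas HT cells had 6.56 to 13.2 CPM at E16.5, a range of 0.762 to 3.21 CPM at E18.5 and no more than 0.153 CPM at D2.5.

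Cyp7b1 stood at 11.7, 9.16 and 28.5 CPM in KO, against 0.612, 0.135 and 0.313 CPM in HT and 0.793, 1.13 and 0.142 CPM in WT. Against HT it passed (log2 fold change 5.51, SE 1.04, edgeR adjusted p = 0.0174) and against WT it did not (4.57, SE 0.98, edgeR adjusted p = 0.0506), although KO overlapped with neither group. The call against HT was lost without KO replicate 3 (edgeR adjusted p = 0.192) and without HT replicate 2 (0.139) or HT replicate 3 (0.0970). Cyp2c29 stood at 7.97, 11.1 and 6.10 CPM in KO, against 0, 0.406 and 0.156 CPM in HT and 0, 0.161 and 1.84 CPM in WT. Each KO library was above each other library, but the log2 fold changes of 5.36 (SE 1.47, edgeR adjusted p = 0.228) and 3.60 (SE 1.32, edgeR adjusted p = 0.454) did not pass.

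Of the other genes called at E18.5, Cyp4a32 was at 0 in each KO and HT library at D2.5 and at 0.476, 0 and 0 CPM in WT, and Cyp2c38 and Cyp2c68 were at 0 in all 9 libraries. Cyp2c40, not tested at this age, stood at 0, 0.322 and 0 CPM in KO, against 0, 0.135 and 0 CPM in HT and 0 CPM in each WT library. Cyp2c50 stood at 1.01, 1.29 and 4.78 CPM in KO, against 0, 0 and 0.156 CPM in HT and 0, 0.484 and 0 CPM in WT, and did not pass the filter. Cyp2c53-ps stood at 1.59, 0 and 1.65 CPM in KO, against 0, 0.135 and 0 CPM in HT and 0 CPM in each WT library, and Cyp2j8 at 0, 0 and 3.30 CPM in KO, against 0, 0.406 and 0 CPM in HT and 0 CPM in each WT library. Neither was tested. Cyp2c69, not tested either, had 0, 24 and 116 counts in KO, against 0, 1 and 0 in HT and 3, 0 and 9 in WT, so its KO reads came mostly from 1 library.

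Among other genes at D2.5, Cyp26b1 stood at 19.3, 29.6 and 18.3 CPM in KO, against 12.1, 7.98 and 3.60 CPM in HT and 13.8, 4.20 and 1.98 CPM in WT. Its KO libraries lay above the others, and the log2 fold changes of 1.53 (SE 0.67, edgeR adjusted p = 0.610) and 1.78 (SE 0.67, edgeR adjusted p = 0.480) did not pass. Sertoli cell markers summed to 115 to 272 CPM in KO, 127 to 182 CPM in HT and 85.8 to 169 CPM in WT. Stromal markers summed to 250.3 to 711 CPM in KO, 188 to 293 CPM in HT and 165 to 436 CPM in WT. Against HT edgeR called 0 of the 9 stromal genes, with 8 fitted above 0, a median log2 fold change of 0.79 and 4 at an unadjusted p under 0.05; against WT it called 0, with a median of 0.56 and 4 at an unadjusted p under 0.05. The part of these markers in the Cyp results of D2.5 was not tested. The largest lower fitted value was that of Cyp19a1, at 0 in each KO library, against 2.14, 0.135 and 0 CPM in HT and 1.75, 0 and 2.12 CPM in WT, with overlap. Cyp2c44 stood at 1.30, 2.09 and 0 CPM in KO, against 2.45, 8.66 and 4.38 CPM in HT (log2 fold change -2.12, SE 1.07), without overlap and without passing. Between HT and WT the largest fitted values were those of Cyp1a1 (4.68, SE 2.10), Cyp4a12b (2.60, SE 1.55) and Cyp11b1 (2.40, SE 0.99). Cyp11b1, which completes corticosteroid synthesis, stood at 6.88, 14.5 and 24.9 CPM in HT, against 1.11, 6.78 and 0.708 CPM in WT, without overlap and without passing.

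The difference of the KO effect between ages was tested in 1 fit of the 18 KO and HT libraries. From E16.5 to E18.5 and from E18.5 to D2.5, 0 of 80 Cyp genes passed, where 0 and 0.0531% of 18815 genes did; 2 and 15 Cyp genes had an unadjusted p under 0.05, against 0.829% and 10.4% of all genes. For Cyp4a12b the KO effect was 1.93 larger at E18.5 than at E16.5 (SE 0.65, edgeR adjusted p = 1.00) and 4.44 larger at D2.5 than at E18.5 (SE 0.93, edgeR adjusted p = 0.110). For Cyp7b1 the second difference was 3.64 (SE 1.11, edgeR adjusted p = 0.264). The effects at the 3 ages were thus not shown to differ.

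The levels of the family also differed between ages. Each age is a separate table, so age and table cannot be told apart. Within HT cells 46 of 80 Cyp genes changed between E18.5 and D2.5, 4 higher and 42 lower, where 54.8% of all genes changed. Among multi-copy genes 35 of 54 fell and 0 rose; among single-copy genes 7 of 26 fell and 4 rose, against 33.4% and 21.4% of all genes. Those that rose were Cyp51 (log2 fold change 2.95, edgeR adjusted p = 8.22e-08), the ethanol-oxidising Cyp2e1 (3.80, edgeR adjusted p = 8.23e-06), the vitamin D 25-hydroxylase Cyp2r1 (1.90, edgeR adjusted p = 0.000296) and Cyp2ab1 (1.73, edgeR adjusted p = 0.0266). Cyp51 stood at 153, 147 and 124 CPM in HT at D2.5, against 27.3, 26.6 and 23.8 CPM at E18.5. In KO cells Cyp51 (2.46), Cyp2e1 (2.92) and Cyp2r1 (1.54) rose too, as did Cyp26b1 (1.67), and 45 of 80 Cyp genes fell, where 21% of all genes rose and 34.2% fell (55.2% in either direction).

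The summed multi-copy level was 55.8 to 98.5 CPM in HT at D2.5 against 255 to 277 CPM at E18.5, while the single-copy sum was 274 to 325 CPM against 259 to 297 CPM. The sums of 2 marker lists of other cell types were lower at D2.5 in HT too. Hepatocyte markers summed to 87.0 to 122 CPM at D2.5 against 422 to 478 CPM at E18.5, with 5 of 9 called lower and a median log2 fold change of -2.16, and endothelial markers to 77.5 to 83.8 CPM against 272 to 362 CPM, with 3 of 8 called lower. At E18.5 listed genes other than Alb carried nearly all of the hepatocyte sum, so that sum need not reflect liver cells. The part of these markers in the lower Cyp levels was not tested. Cyp4a12b was followed over the ages in both genotypes. It fell in HT between E16.5 and E18.5 (log2 fold change -2.53, SE 0.49, edgeR adjusted p = 0.00484) and again between E18.5 and D2.5 (-3.73, SE 0.80, edgeR adjusted p = 0.000638). In KO the same steps gave -0.60 (SE 0.45, edgeR adjusted p = 0.421) and 0.70 (SE 0.45, edgeR adjusted p = 0.190). Between E16.5 and E18.5, 7 Cyp genes rose and Cyp4a12b alone fell in HT, where 4.81% of all genes rose and 8.39% fell (13.2% changed); without HT replicate 1 at E16.5, 1 Cyp gene was called. In KO the same step gave 0 calls in 80, where 4.54% of all genes changed. The 2 courses of Cyp4a12b were compared in the test between ages above, which it did not pass.

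Per kilobase of transcript, Cyp2c55 led at E18.5 in HT cells with 12.2 CPM per kilobase (SD 1.17, n = 3), followed by Cyp2f2 (11.1, SD 1.65), Cyp46a1 (9.83, SD 1.35), Cyp4f16 (9.71, SD 0.842) and Cyp2s1 (9.23, SD 1.63), and neighbours in this order differed by less than the larger SD plus the smaller. By mean CPM over the 21 libraries, not scaled for length, Cyp51, Cyp2s1, Cyp4f16, Cyp20a1 and Cyp2c55 led, none of them among the called genes. Cyp51 owes this place to D2.5; in HT cells at E18.5 it averaged 25.9 CPM, under Cyp2s1 (45.6 CPM), Cyp46a1 (32.3 CPM) and Cyp4f16 (29.8 CPM). The log2 fold changes of KO over HT at E18.5 were -0.01 for Cyp51, -0.20 for Cyp2s1, 0.23 for Cyp4f16, 0.55 for Cyp20a1 and -0.14 for Cyp2c55, and the smallest edgeR adjusted p among them was 0.437 for Cyp20a1, an orphan P450. Cyp4f16 fell after birth in HT (log2 fold change -2.96, edgeR adjusted p = 0.000324), as did Cyp2s1 (-1.94, edgeR adjusted p = 0.00400), while Cyp20a1 stood at 13.8, 20.3 and 10.8 CPM at D2.5 and 15.7, 13.9 and 22.3 CPM at E18.5 and did not pass.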

How the data were processed

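RNA was taken from sorted germ cells with a PicoPure kit and amplified with NuGEN Ovation kits, per the labels' protocols. Among the tools in the submitters' processing notes are the aligners STAR and Bowtie, the counter featureCounts, and edgeR; the build listed is mm9, and neither versions nor roles are stated. The deposited values are raw read counts of 24495 gene rows (1217 repeat names were used for 1 alternative scaling only; the repeat family tables were not used). How reads that match several copies were counted, and whether strand was used, is not given in the sources used here. Genes were tested with edgeR 4.0.16 in R 4.3.3: a low-count filter (filterByExpr, at least 10 reads and 15 in total), scaling by TMM, quasi-likelihood tests, two-sided, Benjamini-Hochberg adjustment over all tested genes. Each embryonic age had its own fit of 6 libraries, D2.5 one of 9, and comparisons of ages one of 18. DESeq2 1.42.0 and limma-voom 3.58.1 were alternatives. An SE is the log2 fold change divided by the square root of F. The test was checked on simulated counts. P-values weigh a group difference against the spread between these libraries. Whether that spread is one between animals or between pools is not named in the labels. Shared 31-base words came from GENCODE transcripts and promoters from RefSeq, both GRCm38; 105 rows matched RefSeq symbols and 78 had a promoter. Figures used matplotlib 3.10.9. The named genes were Tex15, all called Cyp genes, the 3 largest uncalled ones per comparison, role genes, the 5 highest by CPM and up to 2 per partner list (1 such gene is not reported here); further genes were named after their values were seen. The members and lists were chosen with earlier results of these data known.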

Additional observations from a re-analysis of the deposited data

How the results depend on the processing

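At E18.5 the 10 called Cyp genes became 6 to 9 when 1 library was left out, with 6 without HT replicate 1 or KO replicate 3, and the 389 called genes became 197 to 392. Cyp4a12b, Cyp4a32, Cyp2c29, Cyp7b1, Cyp2c53-ps and Cyp2c50 passed in all 13 settings run, Cyp2c68 in 8 of 12, Cyp2c40 and Cyp2j8 in 7 of 13 and Cyp2c38 in 6 of 12. At D2.5, KO against HT gave 1 to 2 Cyp genes (14 to 24 genes) when 1 library was left out, 4 (109) with no filter and 0 Cyp genes with limma-voom, in which Cyp4a12b had an adjusted p of 0.0738; DESeq2 called 126 genes. KO against WT gave 1 Cyp gene throughout the leave-outs (19 to 30 genes) and 2 with RLE factors, TMM over genes and repeat names, a minimum count of 20, DESeq2 (123 genes) or no filter (110 genes), and Cyp7b1 was the second. HT against WT gave 4 genes with no filter, 2 with DESeq2 and 1 to 2 in the leave-outs, and Cyp2c29 (-1.76) ranged from -2.89 to 1.07 in the leave-outs, turning without WT replicate 3. At E16.5 DESeq2 called 1 Cyp gene among 6 genes. The main fits did not pair libraries by replicate number. The correlation of deviations between same-numbered libraries was 0.62, -0.04 and 0.77 at E16.5 and 0.25, 0.15 and 0.10 at E18.5. At D2.5 it was at most 0.03. Whether same-numbered libraries share a source was not tested. With the replicate block, 2 genes were called at E16.5 and 12 Cyp genes at E18.5, among them the 10. Between HT E18.5 and E16.5, 5 Cyp genes were called with no filter or a minimum count of 20, 23 with limma-voom and 1 without HT replicate 1; between KO E18.5 and E16.5, 10 with limma-voom and 1 without that library. The median of multi-copy minus single-copy genes was 0.34 at E18.5 and 0.44 at E16.5, where it was 0.36 over all members with a count. At D2.5 it was -0.57 against HT, turned to 0.41 over all members with a count and was 3.09 for 2c, 2j and 4a minus the other multi-copy genes; that last difference was -0.72 for KO against WT and -1.28 for HT against WT, and HT against WT gave -0.20 over all members with a count. The causes were not tested. Few counts limit most members, above all at D2.5.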
